A study of Mus musculus with 8 samples.

Results

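The claudins and tight junction proteins described here are 9 genes chosen by name: Cldn1, Cldn3, Cldn4, Cldn5, Cldn7, Cldn18, Ocln, Tjp1 and F11r. Every probe whose platform gene symbol is one of these names was taken. This gave 8 probes for 8 of the genes, 1 probe each, among 25697 probes and 16593 gene symbols on the array. Cldn5 was not analysed here. All 8 probes were detected on enough arrays to be tested.

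Messenger RNA came from the whole lung of NOD/shi mice aged 6 to 12 weeks, with 1 Illumina bead array per lung. The NOD strain develops autoimmune diabetes, which limits how far its lungs stand for those of other mice. Controls were 3 lungs from mice without ventilation, and the other group was 5 lungs from mechanically ventilated mice of the same strain and age range, in a study of lung injury caused by the ventilator. The labels give neither the ventilator settings nor the length of ventilation, and nothing in the labels says more about the 8 lungs than that they are separately numbered.

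Tight junctions are the belts of membrane contact that close the space between neighbouring epithelial or endothelial cells. Claudins form the strands of the belt and set which ions and solutes may pass between the cells. Occludin and junctional adhesion molecules stand beside them in the membrane, and scaffold proteins of the zonula occludens family tie all of these to actin. In the alveolus this belt keeps plasma fluid out of the air space. In a whole lung, fewer cells of a type and less RNA per cell cannot be told apart.

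Cldn4 and Cldn3, whose probes are contrasted below, are neighbours in the mouse genome. They point away from each other on chromosome 5, their starts lie 39.3 kb apart, and 0 other genes lie between them in the RefSeq gene table. The 250 bases before the start of each are shown because the genes are neighbours of the same family, of which Cldn4 passed the threshold below and Cldn3 did not. Capitals mark TGANTCA, the core of the site bound by AP-1 factors, where N is any base; the word reads the same on both strands.
Cldn4, minus strand, GRCm38.p6 chr5:134946935-134947184: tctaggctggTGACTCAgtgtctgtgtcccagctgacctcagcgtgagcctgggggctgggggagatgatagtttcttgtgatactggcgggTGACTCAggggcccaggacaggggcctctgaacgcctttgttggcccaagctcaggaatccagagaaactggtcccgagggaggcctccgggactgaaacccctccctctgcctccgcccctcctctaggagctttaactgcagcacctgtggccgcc
Cldn3, plus strand, GRCm38.p6 chr5:134985964-134986213: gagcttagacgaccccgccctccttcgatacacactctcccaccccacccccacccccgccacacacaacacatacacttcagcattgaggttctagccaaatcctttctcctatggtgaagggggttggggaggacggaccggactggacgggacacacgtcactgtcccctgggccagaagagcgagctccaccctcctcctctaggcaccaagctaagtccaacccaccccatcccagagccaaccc

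The Cldn4 window held 2 matches, which begin 240 and 158 bases before the start, and the Cldn3 window held 0. Of 32851 RefSeq promoter windows of this length, 6.75% held at least 1 match and 0.338% at least 2. Promoters were found for all 8 measured genes, in 11 windows, and only those of Cldn4 and F11r held the word. The F11r match begins 109 bases before its start. The window of Jup, an adherens junction gene that passed the threshold below, held 0 matches to the AP-1 word. No window was found for Cldn23 or Igsf5, the other listed junction genes that passed. Other motifs were counted too. That of the factor SP1 had 1 match in the Cldn4 window and 1 in the Cldn3 window, and the rest had 0 in both. The AP-1 motif was chosen after the Cldn4 sequence and its expression were seen. A match is a description of the letters and not of a bound site.

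Array brightness varied widely, with a mean over probes of 54.3 to 332 intensity units in the controls and 87.4 to 321 after ventilation. Between 8080 and 14313 probes were detected per array. Control 2 was the dimmest array. Its highest correlation with any other array was 0.896, while each of the other arrays reached at least 0.944 with some array, so the values of the 8 genes are also given without it. Surfactant genes, which mark alveolar type 2 cells, were detected on every array: Sftpa1, Sftpb, Sftpc and Sftpd all passed on 8 of the 8 arrays. The number of arrays limits the precision of every value.

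Levels are normalized log2 intensities after background correction, and fold changes are ventilated minus control. Each was tested with limma across 13374 probes, with Benjamini-Hochberg adjustment over all of them and a threshold of 0.05. An adjusted p is given in the text from that fit. Of the 8 genes, Cldn4 alone passed the threshold, upward, and none passed downward. Over all probes 0.987% passed upward, 0.628% downward and 1.62% in either direction. The log2 fold changes of the 8 had a median of 0.47, against 0.01 over all probes, and 5 of the 8 lay above 0, against 50.5% of all probes. Before adjustment 4 of the 8 (Cldn3, Cldn4, Cldn7 and Ocln) had a limma p under 0.05, against 15% of all probes.

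**Figure D1:**
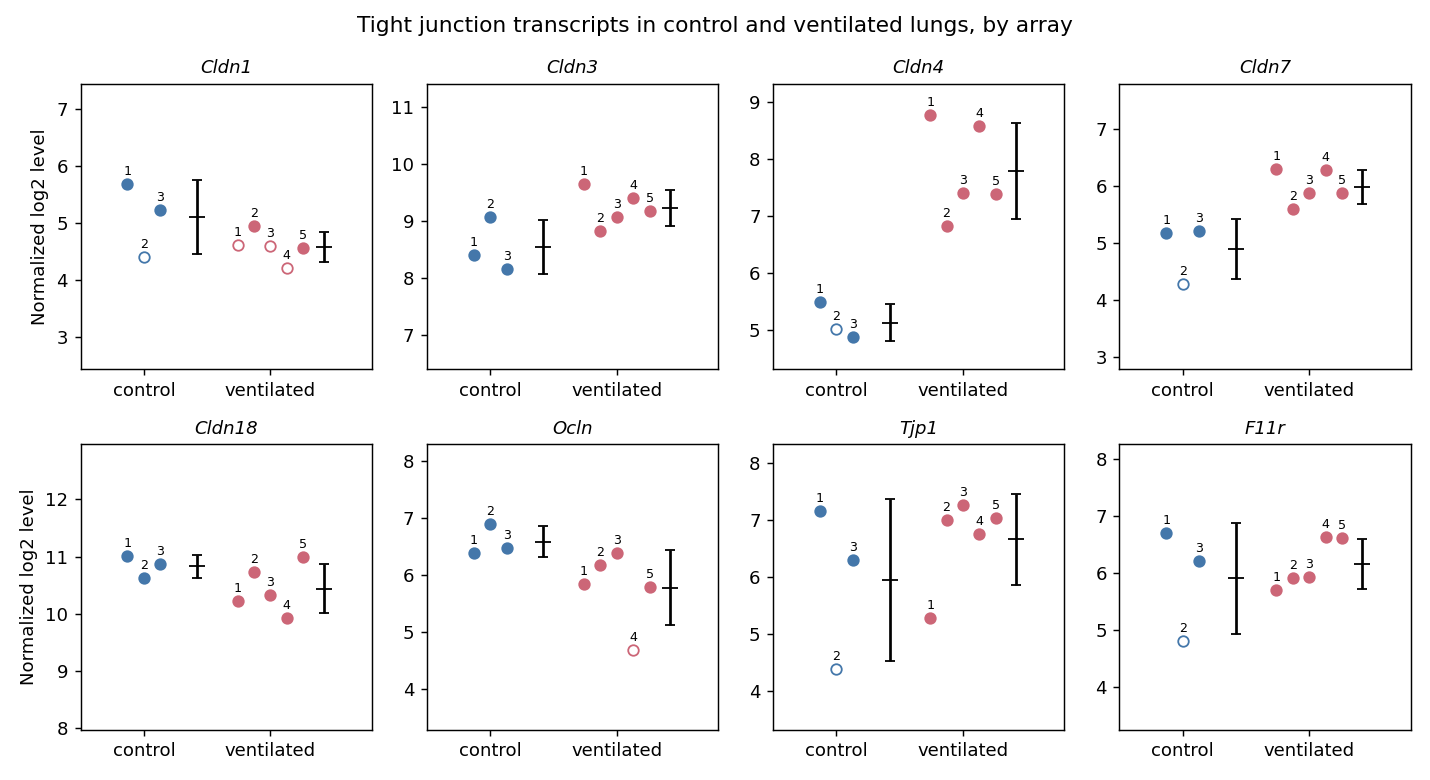
Normalized log2 level of each measured gene (vertical axis, 5 log2 units tall in every panel) by group, with 1 point per array and the replicate number above it. Open points were not detected at p under 0.05, and bars give the group mean and SD; all 5 ventilated points of Cldn4 and Cldn7 lie above the controls, and all 5 of Ocln lie below them.

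Cldn4 encodes a claudin of tight epithelia that seals the space between cells, and which lung epithelium also makes. Before any scaling, controls 1 to 3 gave probe intensities of 123, 42.2 and 63.9, and ventilated lungs 1 to 5 gave 218, 156, 118, 136 and 340. Its normalized log2 level was 5.50, 5.03 and 4.88 in the controls. After ventilation it was 8.77, 6.83, 7.40, 8.59 and 7.39. The lowest ventilated lung stood above the highest control, with ventilated 1 and 4 the highest and ventilated 2 the lowest. The group means were 5.14 ± 0.33 (SD, n = 3) and 7.80 ± 0.84 (SD, n = 5).

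The Cldn4 transcript rose 6.31-fold, a log2 fold change of 2.66 with a standard error of 0.43 and a 95% interval of 1.70 to 3.61 (limma adjusted p = 0.0162). Its p ranked number 68 of 13374 probes. The exact permutation p (two-sided, 56 splits) was 0.0179, the smallest possible. Within its own array, the probe was brighter than 56.2% to 65.3% of probes in the controls and than 78.8% to 92.5% in the ventilated lungs. In control 2 the probe was not detected, and it was detected on the other 7 arrays.

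The Cldn4 change was 2.68 without control 2 (limma adjusted p = 0.0287). Without control 3 it was 2.48 and the call was lost (limma adjusted p = 0.0712). Within the 4 brighter arrays, 2 of each group, it was 2.19 (limma adjusted p = 0.0838), and within the 4 dimmer arrays, it was 2.24, a value with no control spread behind it, since control 2 is the only control there and the probe was not detected on it. The intensities as the authors scaled them, with no background removed, gave 1.50 (limma adjusted p = 0.506). With normexp and no negative controls it was 1.52, and with no background correction 1.67, both past the threshold.

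**Figure D2:**
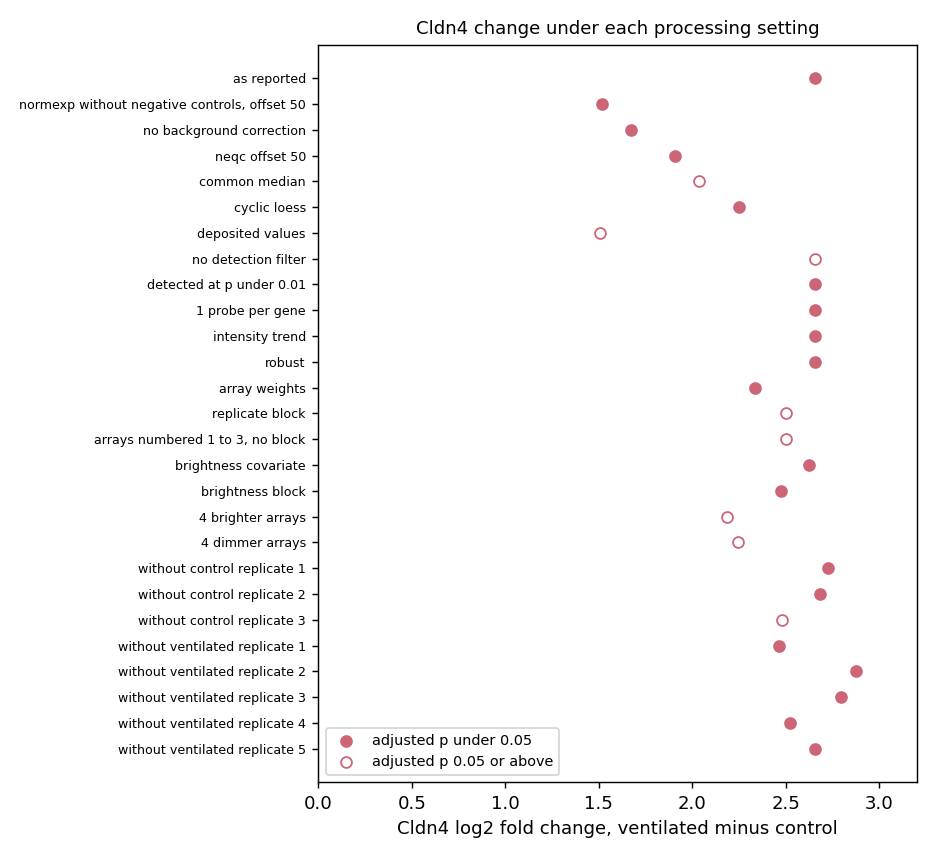
Log2 fold change of Cldn4, ventilated minus control (horizontal axis), under each processing setting (rows). Filled points have an adjusted p under 0.05; every setting lies between 1.50 and 2.88, and 7 of the 8 settings that leave out 1 array keep the call.

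Cldn3, which belongs with Cldn4 to the claudins that bind a bacterial enterotoxin, and Cldn7, found along the sides of airway and other epithelial cells, did not pass. The log2 level of Cldn3 was 8.40, 9.06 and 8.16 in the controls and 9.65, 8.82, 9.06, 9.40 and 9.18 in the ventilated lungs. Control 2 lay above ventilated 2, so that the groups overlapped. Its log2 fold change was 0.68 ± 0.28 (SE; 95% interval 0.07 to 1.29; limma adjusted p = 0.282), and 0.95 without control 2. The exact two-sided permutation p was 0.0536. Of 19 other processing settings Cldn3 passed in 1, with weights for array quality (0.81, limma adjusted p = 0.0304). Cldn3 was detected on every array.

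The log2 level of Cldn7 was 5.18, 4.29 and 5.23 in the controls and 6.31, 5.60, 5.89, 6.28 and 5.88 after ventilation. All 5 ventilated lungs lay above the 3 controls, as they did for Cldn4 but for 6.12% of all probes. Its log2 fold change was 1.09 ± 0.28 (SE; 95% interval 0.47 to 1.72), with a limma adjusted p of 0.0936. The exact two-sided permutation p was 0.0179, the smallest possible. The log2 fold change was 0.83 without control 2, on which the probe was not detected. With the brightness of the array as a covariate it was 1.11 and with weights for array quality 0.70, and in both fits it passed (limma adjusted p = 0.0453 and 0.0497). It was smaller and did not pass with normexp and no negative controls (0.50), with no background correction (0.57), with a common median (0.41) or on the values the authors scaled (0.37), where limma adjusted p ranged from 0.117 to 1.0.

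Cldn18, whose lung form is typical of alveolar epithelium, and Cldn1, a claudin of airway lining and skin, lay lower on average in ventilated lungs, and neither passed. Cldn18 gave log2 levels of 11.01, 10.62 and 10.87 in controls and 10.23, 10.73, 10.33, 9.92 and 10.99 in ventilated lungs. Ventilated 2 and 5 lay within the range of the controls, and the other ventilated lungs below it. Its log2 fold change was −0.39 ± 0.27 (SE; 95% interval −0.996 to 0.21; limma adjusted p = 0.555). It was −0.50 without control 2 and −0.08 among the 4 brighter arrays.

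Cldn1 had log2 levels of 5.68, 4.41 and 5.22 in controls and 4.62, 4.95, 4.60, 4.20 and 4.55 in ventilated lungs. It was detected on 2 of 3 control and 2 of 5 ventilated arrays, and the undetected control 2 lay below 4 of the ventilated values. The log2 fold change was −0.52 ± 0.30 (SE; 95% interval −1.18 to 0.14; limma adjusted p = 0.466). It was −0.93 without control 2 (limma adjusted p = 0.119) and −0.20 without control 1 (limma adjusted p = 0.777), so its size turned on single controls.

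Occludin, encoded by Ocln, is the membrane protein that runs in the strands beside the claudins. Its log2 level was 6.39, 6.89 and 6.48 in the controls and 5.84, 6.17, 6.38, 4.69 and 5.79 in the ventilated lungs. All 5 ventilated values lay below the controls, as for 6.08% of all probes, though ventilated 3, at 6.38, lay just under the lowest control, at 6.39. The lowest, ventilated 4, was the only array on which the probe was not detected. Its log2 fold change was −0.81 ± 0.36 (SE; 95% interval −1.60 to −0.02; limma adjusted p = 0.322), −0.69 without control 2 and −0.55 without ventilated 4. The exact two-sided permutation p was 0.0714.

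F11r encodes the junctional adhesion molecule JAM-A, and Tjp1 encodes the scaffold ZO-1. F11r had log2 levels of 6.69, 4.81 and 6.20 in controls and 5.69, 5.91, 5.92, 6.62 and 6.61 in ventilated lungs. Its log2 fold change was 0.25 ± 0.41 (SE; limma adjusted p = 0.828), with a 95% interval of −0.65 to 1.15. Without control 2 it was −0.31, so its sign turned on that array, where the probe was not detected.

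Tjp1 had log2 levels of 7.15, 4.38 and 6.30 in controls and 5.27, 6.99, 7.27, 6.75 and 7.04 in ventilated lungs. Control 2, where it was not detected, and ventilated 1 lay far below the rest. Its log2 fold change was 0.72 ± 0.60 (SE; 95% interval −0.61 to 2.05; limma adjusted p = 0.632), the widest interval of the 8 genes, and it was −0.07 without control 2. No direction is given for F11r or Tjp1.

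**Figure D3:**
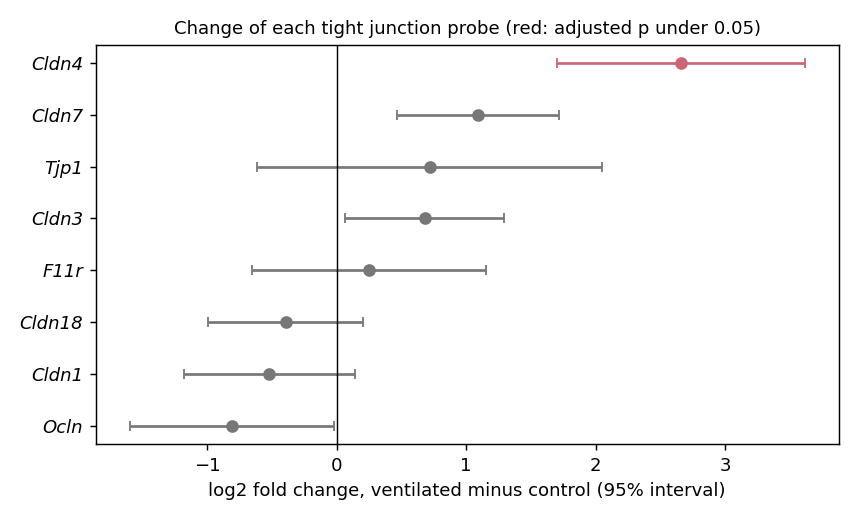
Log2 fold change of each measured gene, ventilated minus control (horizontal axis), with its 95% interval. Cldn4 is drawn in red, at 2.66, and its interval and those of Cldn7 and Cldn3 lie above 0, while that of Ocln ends just below 0.

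Cldn4 was also set against the other 7 within each array, as a description with no test, since it was picked for having the smallest p. The log2 difference between Cldn4 and Cldn3 was 1.98 larger after ventilation. The ventilated lungs lay 1.41 to 2.59 above the control mean of that difference, and controls within −0.63 to 0.51 of it. For Cldn7 the shift was 1.56, the smallest of the 7, and for Ocln 3.47, the largest. For Tjp1 it was 1.94, with 2 of 5 ventilated lungs above all controls, where all 5 lay above them for each of the other 6 genes. Cldn1, 1 of those 6, was detected on 4 of 8 arrays. Of the 7, only Cldn3 and Cldn7 were, like Cldn4, highest in ventilated 1 and second highest in ventilated 4. Both were also lowest of the ventilated lungs in ventilated 2, as Cldn4 was.

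Other junction genes were read from lists chosen by function, with earlier results of these data known. The shares over all probes, to be set beside each list, were 0.987% upward and 0.628% downward. Of 6 other claudins measured, Cldn23 passed upward and none passed downward. The tested Cldn10 probes all lay lower after ventilation (−0.57, −0.89 and −0.53), without passing (limma adjusted p = 0.310, 0.146 and 0.329). The log2 level of Cldn23 was 5.18, 4.33 and 5.09 in controls and 6.99, 6.39, 6.33, 6.57 and 6.32 after ventilation, with no overlap. On control 2 the Cldn23 probe was not detected. The log2 fold change was 1.65 ± 0.27 (SE; limma adjusted p = 0.0162), 1.44 without control 2. It was lost without control 3 (1.70, limma adjusted p = 0.0533). It was 0.78 with normexp and no negative controls and 0.90 with no background correction, past the threshold in both, and 0.72 on the values the authors scaled, where it did not pass (limma adjusted p = 0.863).

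The list of 6 other membrane proteins of the tight junction held 1 that rose and none that fell. Igsf5, which encodes the adhesion molecule JAM-4, stood at 7.11, 6.91 and 6.97 in controls and 8.33, 7.79, 7.74, 8.48 and 8.24 after ventilation. All ventilated values were above the controls, and the log2 fold change was 1.12 ± 0.24 (SE; limma adjusted p = 0.0486). That call was lost whenever any 1 of the 8 arrays was left out, at values of 1.03 to 1.21.

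None of 13 plaque and polarity proteins passed. The smallest p was that of Pard3, a scaffold of cell polarity (0.91 ± 0.22, limma adjusted p = 0.0682). That probe was not detected on control 2, and the other tested Pard3 probes gave 0.25 and −0.14. Of 9 adherens junction genes 1 rose and none fell. It was Jup, which encodes plakoglobin, a catenin of adherens junctions and desmosomes, with levels of 5.46, 5.72 and 5.47 in controls and 7.11, 7.07, 6.74, 7.19 and 6.70 after ventilation. On control 2, the highest of these controls, Jup was not detected. Its groups lay apart, with a log2 fold change of 1.41 ± 0.22 (SE; limma adjusted p = 0.0114), and the call was lost without control 1 (1.32, limma adjusted p = 0.0516) or control 3 (1.34, limma adjusted p = 0.0681). It passed at 0.75 with normexp and no negative controls and at 0.84 with no background correction, and did not pass on the values the authors scaled (0.75, limma adjusted p = 0.775).

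Of 10 epithelial transcription factors none passed. Grhl1, a grainyhead-like factor of epithelial cells, had the smallest p (1.24 ± 0.28, limma adjusted p = 0.0597) and was not detected on control 2. The median log2 fold change was 0.15 for the other claudins, −0.02 for the membrane proteins, −0.08 for the plaque and polarity proteins, 0.14 for the adherens genes and 0.25 for the transcription factors, against 0.01 over all probes.

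**Figure D4:**
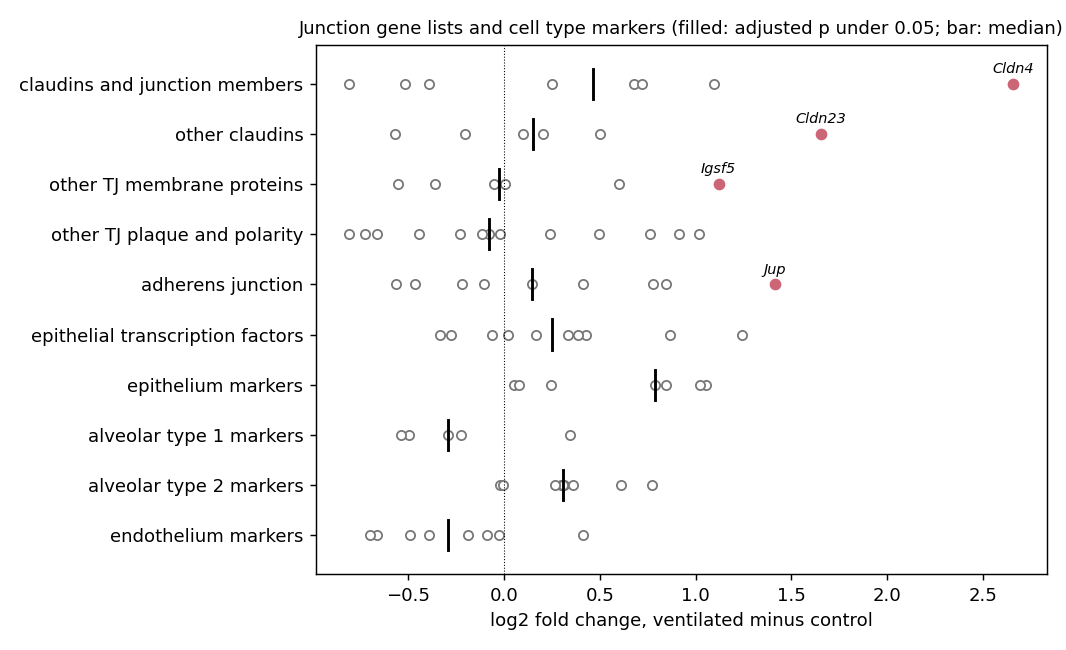
Log2 fold change, ventilated minus control (horizontal axis), of each measured gene of each list (rows), with the list median as a bar. Filled points passed the threshold: Cldn4 at 2.66, Cldn23 at 1.65, Jup at 1.41 and Igsf5 at 1.12; no marker of epithelium, alveolar cells or endothelium is filled.

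Markers of the cells that carry these junctions were read beside the claudins. None of 7 general epithelial markers passed, and 3 of 7 (Krt8, Krt18 and Spint1) had all ventilated values above the controls, against 6.12% of all probes, with a list median of 0.79. Their mean log2 level relative to the controls was −0.37 to 0.30 in the controls and 0.40 to 0.75 after ventilation, while their summed log2 level was 11.21 to 11.62 and 11.57 to 12.10, which overlap. Between 5 and 7 of the 7 were detected on each array. None of 9 alveolar type 2 markers passed (median 0.31), nor any of 5 alveolar type 1 markers (median −0.29). The part of these shifts in the claudin values was not tested.

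None of 8 endothelial markers passed (median −0.29), and 3 of 8 (Egfl7, Ramp2 and Tek) had all ventilated values below the controls, against 6.08% of all probes. Their summed log2 level was 13.88 to 14.10 in controls and 13.41 to 13.75 after ventilation, while their mean log2 level relative to the controls overlapped, at −0.12 to 0.11 and −0.51 to −0.12. Of 9 neutrophil markers 5 rose and none fell, against 0.987% and 0.628% of all probes. Their summed log2 level was 10.63 to 10.99 in controls and 13.10 to 14.32 in ventilated lungs, highest in ventilated 1, which also had the highest Cldn4. Ventilated 4, next highest in Cldn4 at 8.59, had a summed neutrophil level of 13.18, near the lowest of the ventilated lungs. The summed level of the 7 general epithelial markers was highest in ventilated 4 (12.10) and next in ventilated 1 (12.01). Of the ventilated lungs it was lowest in ventilated 2 (11.57), as was Cldn4. The summed level of the platelet markers was highest in ventilated 1 (10.39) and next in ventilated 4 (10.18). None of 6 platelet, 4 airway secretory, 5 ciliated or 3 skeletal muscle markers passed, with list medians of 0.46, −0.06, −0.23 and −1.11. The mean log2 level of the skeletal muscle markers, relative to the controls, was 2.84 in control 1, −1.77 in control 2 and −1.07 in control 3. The ventilated lungs, at −1.05 to −0.98, lay within that range. On the controls 3 to 5 of the 9 neutrophil markers were detected, with Il1r2, Camp, Ngp and Cxcr2 detected on none. The part of neutrophil, platelet or epithelial RNA in the junction values was not tested.

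Among all other genes, the 5 whose course over the 8 arrays was nearest to that of Cldn4 were Prss22, Mt2, Cd177, Mt1 and Alpl. Likeness was the root mean square difference of log2 levels, each centred on its mean over the arrays, and it was 0.45, 0.50, 0.53, 0.54 and 0.54 for them, against a median of 1.46 over all genes. Prss22 encodes a serine protease of airway epithelium, Mt1 and Mt2 metallothioneins, Cd177 a surface protein of neutrophils and Alpl an alkaline phosphatase. Prss22, detected on 1 of 3 control arrays, went from 4.38 ± 0.15 (SD, n = 3) to 6.57 ± 0.88 (SD, n = 5). Like Cldn4, Cldn3 and Cldn7, it was highest in ventilated 1 and second highest in ventilated 4. All 5 passed the threshold, with log2 fold changes of 2.00 to 2.75; they were picked for their likeness to a gene that rose. With each of the 8 arrays left out in turn, Mt1 and Mt2 passed in all 8 fits, Alpl in 7 (lost without ventilated 3, at 2.03), Cd177 in 3 and Prss22 in 2. The Prss22 call was lost without any of controls 1 to 3 or ventilated 2, 3 or 4 (2.05 to 2.30), and the Cd177 call without controls 1 or 3 or ventilated 2, 4 or 5 (1.95 to 2.23).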

How the data were processed

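The deposited files hold, per the file headers, an unnormalized intensity and a detection p-value per probe and array, and a second table of intensities that equals the first times 1 factor per array, except for 1 probe value of control 2. Biotin-labelled cRNA of whole lung was hybridised to Illumina arrays, per the labels; no label names the scanner or its software. In R 4.3.3 with limma 3.58.1, neqc estimated background from negative controls that it derived from the detection p-values, then shifted values by an offset of 16, normalized by quantiles and took log2. Of 25697 probes, 13374 had a detection p under 0.05 on 3 or more of the 8 arrays and were fitted, each probe by itself, with lmFit and eBayes. A gene of a list with several probes is counted by its brightest. Symbols come from the platform annotation. The files name no build; promoter sequence is from RefSeq, GRCm38.p6.

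The 9 genes, the lists and the alternatives were chosen with earlier results of these data known. Named are all measured members, list genes past the threshold or else the smallest p of the list, and the 5 genes nearest to each member past the threshold. The p-values measure the spread between lungs that the labels number separately. In 20 simulations of the ventilated against control comparison on 13374 probes, the fit recovered 21.7% of probes given a change of 2-fold and 75.4% of those given 4-fold. The simulated noise was drawn for each probe by itself, around its normalized mean. Effects of array brightness, background and normalization were not simulated, so these shares do not cover them. Figures used Python 3.11.15 with matplotlib 3.10.9.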

Additional observations from a re-analysis of the deposited data

Results flagged for a closer look

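Among 18 probes checked for a single ventilated lung far from the other 4, 3 stood out, where chance flags about 1 in 20 groups. The Tjp1 log2 level of ventilated 1 was 5.27, below the other 4 at 6.75 to 7.27. The Cd177 level of ventilated 1 was 8.29, above the others at 6.46 to 6.86. The Mt1 level of ventilated 2 was 13.43, below the others at 13.85 to 13.94. Normalization by quantiles gave ventilated 1, 3 and 5 the same Mt1 level, so the narrow spread of the others comes partly from it. Before any scaling, the intensity of ventilated 2 was 12753, within the others at 9615 to 25010.5.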

How the results depend on the processing

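Cldn4 kept its direction in all 26 other fits in which it was measured, with log2 fold changes of 1.50 to 2.66 over 18 processing settings and 2.46 to 2.88 with 1 array left out. It was called in 11 of the former and 7 of the latter. Of 8 members 1 passed; the number was 0 with a common median (Cldn4 2.04), the deposited values (1.50), no detection filter (2.66, adjusted p = 0.0536), detection on all 8 arrays (where 2 members remain and Cldn4 is not measured), the 4 brighter arrays (2.19) or the 4 dimmer ones (2.24), whose lone control is assumed to vary like the ventilated lungs. It was 3 with array weights and 2 with brightness as a covariate, and 0 to 1 with 1 array left out. Over all probes 216 passed, 132 higher and 84 lower. The number was 0 in limma with a common median (162 at unadjusted p under 0.05), which moved the median of all probes to −0.12, and 7, all higher, with the deposited values. It was 332 with cyclic loess, 1025 with array weights, 638 with brightness as a covariate, 345 with it as a block, 29 in the brighter and 2 in the dimmer arrays. With 1 array left out it was 64 to 176. The cause of these shifts was not tested. No label says that the replicate numbers pair the mice, and no pairing was assumed. Deviations of same-numbered arrays correlated at −0.37, −0.35 and 0.35, too few values to settle whether they are paired. With the replicate block on the 3 numbers that both groups share, 2 probes and 0 members passed (Cldn4 2.50, adjusted p = 0.228), against 24 and 0 on the same 6 arrays without the block, a comparison added after seeing the data. Cldn1 in the dimmer arrays, Tjp1 in 3 settings and F11r in 8 turned sign without being called in any. Probes near background limit what the dimmest array can show.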
